A study of Mus musculus with 104 samples.

Results

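In the mouse embryo most CpGs outside CpG islands are methylated, and short stretches of low methylation away from islands are the subject here. The genome of chromosomes 1 to 19 was cut into fixed tiles of 1 kb, and 916 tiles were kept that held 5 to 14 CpGs, had at least 20 reads in each of 3 methylation files, had a methylation level of 25% or less in WT heads, and had no tile of 50 or more CpGs within 2 tiles. They made up 1.37% of the 67091 CpG-poor tiles that passed the same rule without the level threshold, among 258057 tiles with the read minimum and 2365723 tiles that held any CpG. The WT head reads chose these tiles, so their low level in WT heads is a description and not a finding.

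The study followed chromatin and RNA of the mouse embryo around gastrulation and early head development. DNA methylation was measured by bisulfite sequencing with STEM-seq, made for low input, in which unmethylated cytosines are read as thymine. The embryos came from crosses of DBA2 males with C57BL/6N females. The authors gave 1 file per group, in which the reads of all samples were pooled. The KO epiblast group held 3 samples of the E6.5 epiblast of Kmt2b-/- embryos, the KO head group 2 samples of the E8.5 head of Kmt2b-/- embryos, and the WT head group 2 samples of the E8.5 head of WT embryos. Heads were cut off near the neck, so they hold neural tissue together with mesenchyme, surface ectoderm and vessels. A WT epiblast methylation file was not analysed here. With 1 pooled file per group no difference has a replicate check, and every p-value below compares pooled libraries and not conditions. Between the KO epiblast and the KO head, stage and tissue change together and cannot be told apart.

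Kmt2b encodes a histone methyltransferase that places methyl groups on lysine 4 of histone H3, a mark of active promoters and of CpG islands that the DNA methylation machinery tends to avoid. Methylation is laid down across the genome when the blastocyst implants, and by the epiblast stage most CpGs outside islands carry it. Low-methylated stretches with few CpGs are known from other tissues as sites where transcription factors bind, and they often lie in enhancers or in promoters without an island. Histone marks and chromatin accessibility were not analysed here, so whether the tiles act as enhancers was not tested, and they are called low-methylated CpG-poor tiles throughout.

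A minority of the tiles overlap the region just before a gene start, and 5 such windows are shown because they let the CpGs behind a level be seen. Each is the 250 bases before the start, read 5′ to 3′ on the gene's strand, from RefSeq (GRCm38.p6), with every CpG in capitals. Their positions are in mm9, the build of the files, and were found by matching the spacing of the CpGs to the positions in the files. Hoxc4 encodes a homeobox factor of axial patterning, Naa80 the actin N-terminal acetyltransferase, Stoml1 a stomatin-like membrane protein, Dctn1 a dynactin subunit and Stmn3 a stathmin that acts on microtubules of neurons.
Hoxc4: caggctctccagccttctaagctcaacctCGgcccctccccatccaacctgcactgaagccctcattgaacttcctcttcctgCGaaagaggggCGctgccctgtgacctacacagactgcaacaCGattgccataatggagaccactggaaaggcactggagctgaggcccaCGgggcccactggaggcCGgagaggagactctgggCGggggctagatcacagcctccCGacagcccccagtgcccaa
Naa80: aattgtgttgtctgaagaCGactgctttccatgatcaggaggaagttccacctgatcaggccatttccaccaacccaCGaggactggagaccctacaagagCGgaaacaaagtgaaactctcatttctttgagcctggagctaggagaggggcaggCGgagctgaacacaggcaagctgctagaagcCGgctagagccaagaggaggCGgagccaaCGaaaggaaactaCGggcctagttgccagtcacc
Stoml1: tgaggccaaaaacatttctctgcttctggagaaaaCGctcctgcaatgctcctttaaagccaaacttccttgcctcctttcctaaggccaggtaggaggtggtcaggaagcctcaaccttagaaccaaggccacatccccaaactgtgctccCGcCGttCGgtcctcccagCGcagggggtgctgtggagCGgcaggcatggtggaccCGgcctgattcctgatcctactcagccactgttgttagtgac
Dctn1: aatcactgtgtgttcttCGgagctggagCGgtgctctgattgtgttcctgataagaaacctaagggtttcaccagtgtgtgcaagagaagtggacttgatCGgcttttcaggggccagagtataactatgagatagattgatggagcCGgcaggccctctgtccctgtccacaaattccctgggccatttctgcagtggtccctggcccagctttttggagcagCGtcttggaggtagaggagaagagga
Stmn3: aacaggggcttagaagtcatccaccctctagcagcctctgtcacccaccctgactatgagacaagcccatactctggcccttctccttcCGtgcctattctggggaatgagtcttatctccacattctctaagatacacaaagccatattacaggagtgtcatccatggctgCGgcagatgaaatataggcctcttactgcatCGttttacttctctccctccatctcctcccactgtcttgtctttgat

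The Hoxc4 window (chr15:102864576-102864825, plus strand) holds 8 CpGs, and 0 of 12 reads were methylated in the KO epiblast, 2 of 34 in the KO head and 0 of 29 in the WT head. The Naa80 window (chr9:107482750-107482999, plus strand) also holds 8 CpGs, with 0 of 19, 1 of 35 and 2 of 28 methylated reads in the same order. In the Stoml1 window (chr9:58100721-58100970, plus strand) 7 CpGs had 0 of 10, 0 of 22 and 2 of 49 methylated reads. Few or no reads were thus methylated in these 3 windows in each file. With 10 to 19 reads in the KO epiblast, counts of 0 still allow a partly methylated window. The WT head chose the tiles that hold these windows, so its low counts are a description. The Dctn1 window (chr6:83135690-83135939, plus strand) holds 5 CpGs and was partly methylated, with 5 of 15, 8 of 13 and 5 of 20 methylated reads. The Stmn3 window (chr2:181049206-181049455, minus strand) holds 3 CpGs and had 5 of 12 methylated reads in the KO epiblast, 0 of 6 in the KO head and 0 of 4 in the WT head. Of the 17 windows that lay wholly inside a low-methylated tile, 6 had at least 10 reads in each file, and 5 of these 6 were at 15% or less in all 3 files, the exception being that of Dctn1.

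The 3 files held 29138288 reads over CpGs in the KO epiblast, 42047812 in the KO head and 45262929 in the WT head, a mean of 1.37, 1.97 and 2.12 per CpG. In the low-methylated tiles the median number of reads was 26, 33 and 33, so single tiles have wide intervals, and these intervals cover counting error only because the reads carry no molecular identifiers and neighbouring CpGs share reads. A set of 52 tiles (5.68%, against 0.549% of all CpG-poor tiles) had over 5 times the usual reads per CpG, and 7 of them had over 100 times. In 86 tiles (9.39%, against 1.06% of the other CpG-poor tiles) a single CpG held over 50% of the reads of a file. Without both kinds (115 tiles) 801 tiles were left, and the main counts are given for these 801 as well. The low level also depended in part on the reads that chose the tiles. CpG-poor tiles at 25% or less on the first strand alone, with 10 or more WT head reads there and any reads on the other strand in each file, had a median of 37.5% on the second (1136 tiles), and those chosen on the second had 40% on the first (1212 tiles). With every CpG weighted the same, 638 of the 916 tiles (69.7%) were still at 25% or less in WT heads and 56 were above 50%.

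Low methylation in these places was largely shared by the KO libraries. The median level was 18.2% in the KO head (binomial 95% interval of the median over tiles 16.7 to 19.4, n = 916 tiles) and 23.3% in the KO epiblast (21.7 to 25), beside 14.8% in the WT head that chose them. Other CpG-poor tiles had medians of 83.3%, 80.8% and 84.4%. In the KO head 609 tiles (66.5%) were at 25% or less and 46 were above 50%, of which 3 were above 75%. In the KO epiblast 491 tiles (53.6%) were at 25% or less and 132 were above 50%, of which 23 were above 75%. For comparison, 0.523% and 1.10% of the other CpG-poor tiles were at 25% or less in these files. A level of 25% or less was seen in all 3 files in 398 tiles, and a level of 10% or less in all 3 files in 109. Among the 801 tiles that were neither deep nor had reads piled on 1 CpG, 527 were at 25% or less in the KO head, 424 in the KO epiblast, 341 in all 3 files, and 90 were at 10% or less in all 3.

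**Figure D1:**
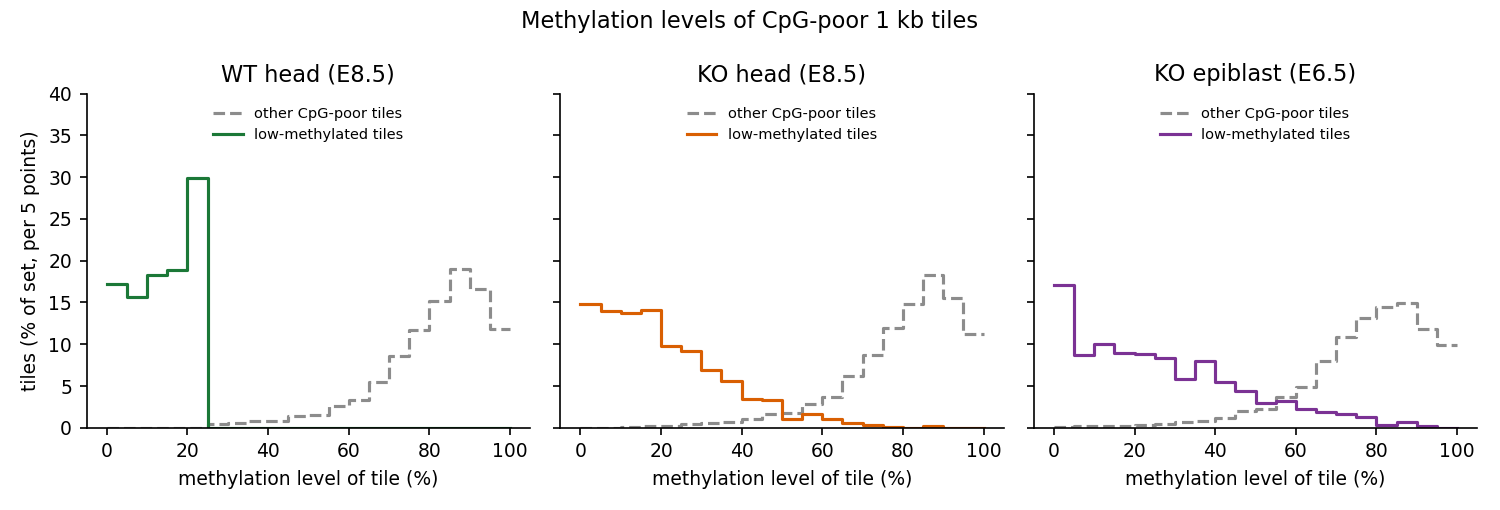
Share of tiles (vertical axis, percent of each set per 5 points) by methylation level (horizontal axis, percent) in each file. Coloured lines are the 916 low-methylated tiles and dashed grey lines the other CpG-poor tiles; the WT head panel is bounded at 25% by the choice of tiles, while in the KO head and KO epiblast, which did not set that bound, most low-methylated tiles still lie far below the grey peak.

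Single CpGs gave the same picture. Among CpGs with at least 5 reads in the tiles that were not deep, 74.6% of 1750 were at 25% or less in the KO head and 61.4% of 1029 in the KO epiblast. The same shares in the other CpG-poor tiles were 6.65% and 7.37%. Full methylation was uncommon in the tiles, with 5.89% of CpGs at 75% or more in the KO head and 10.9% in the KO epiblast, against 68.6% and 65.2% elsewhere. CpG spacing was close to that elsewhere, with a median gap between CpGs of 46.5 bases against 47 in other CpG-poor tiles, and 8 or more CpGs fell within 200 bases in 15.97% of them against 10.8%.

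Most neighbouring tiles that could be read were not low. The 916 tiles formed 907 runs, of which 898 were single tiles and 9 were pairs. Few tiles had a neighbour within the CpG and read limits, so the count of runs was largely set by these limits. Of 116 direct neighbours with 5 to 14 CpGs and the read minimum, 18 (15.5%) were at 25% or less in WT heads, and the neighbours' medians were 69.8% in the WT head, 66.7% in the KO head and 59.6% in the KO epiblast. The WT head level chose the tiles but not their neighbours, so part of this contrast may follow from the choice. In a profile over tiles with at least 10 reads, the mean in the KO head was 60.6% ± 1.37 (SE over tiles, n = 413) 1 kb before the tile and 62.4% ± 1.32 (n = 415) 1 kb after it. At 4 kb it was 75.8% ± 0.989 (n = 430) and 74.6% ± 1.03 (n = 442). Around other CpG-poor tiles it was 80.2% ± 0.0812 (n = 36513) at 1 kb, so the surroundings were lower as well.

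**Figure D2:**
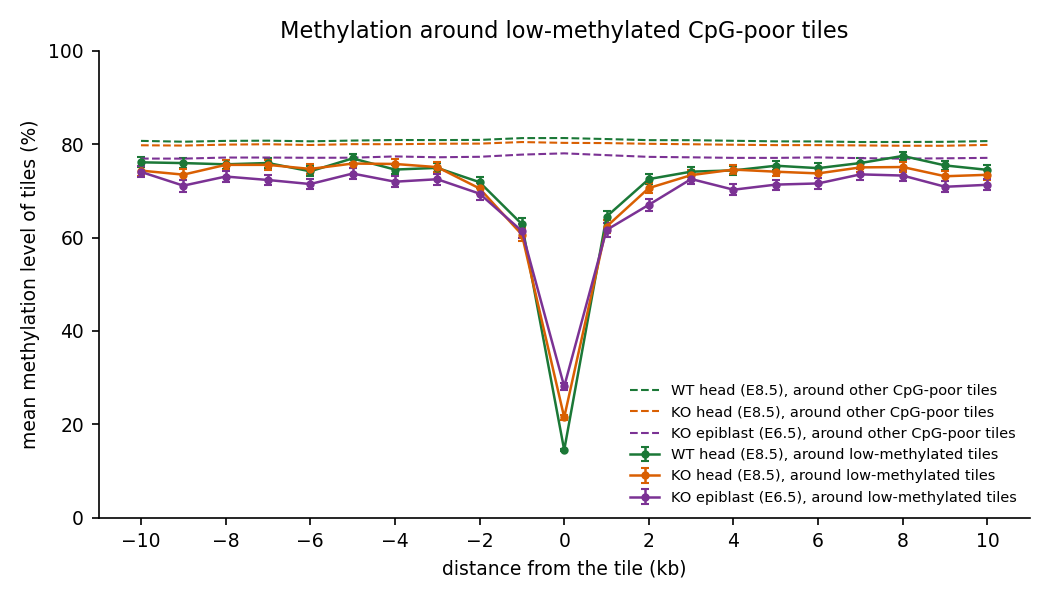
Mean methylation level (vertical axis, percent) of CpG-poor tiles by distance (horizontal axis, kb) from the low-methylated tiles that were not deep (solid lines, bars are SE over tiles) and from other CpG-poor tiles (dashed lines), for each file. The WT head value at 0 follows from the choice of tiles; the KO head and KO epiblast curves dip to 21.5% and 28.1% at the tile and are back above 60% at 1 kb.

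Between the KO epiblast and the KO head more tiles were lower in the head than higher. Fisher's exact test on the reads (two-sided, Benjamini-Hochberg adjusted p under 0.05 over all 258057 tiles) called 68 of the 916 tiles lower in the KO head (7.42%) and 20 higher (2.18%). Over all tiles the same test called 3.27% lower and 3.34% higher, and over all CpG-poor tiles 1.29% and 2.68%. Without the deep tiles and those with reads piled on 1 CpG, 55 of 801 tiles were lower (6.87%) and 8 were higher (0.999%). The direction did not hold in the 67 tiles with at least 40 reads in both KO files. There 5 were lower and 10 higher, and 8 of these 10 were deep or had reads piled on 1 CpG. The tiles were chosen as low in WT heads, which share stage and tissue with the KO heads, so the balance of directions is not independent of the choice.

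The median difference over the 916 tiles was -3.57 points, against 1.95 points in other CpG-poor tiles. It was -3.44 points in tiles of 15 to 49 CpGs that were also at 25% or less in WT heads. In such tiles of 50 or more CpGs it was -2.38 points, so a fall was not particular to CpG-poor tiles. Among the 68 lower tiles the median level was 60.6% in the KO epiblast, 14.1% in the KO head and 15.6% in the WT head. Among the 20 higher tiles it was 3.37%, 30% and 17.1%. The test treats reads as independent, which neighbouring CpGs on a read are not. When each CpG was counted once, 0 of the 916 tiles passed the adjusted threshold of Fisher's exact test, 26 were lower and 2 higher at an unadjusted p under 0.05, and 406 of all tiles were called. Both strands moved in the called direction in 49 of the 68 lower and 13 of the 20 higher tiles. The calls rest on the sum of both strands, so this agreement is partly built in and is a description.

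**Figure D3:**
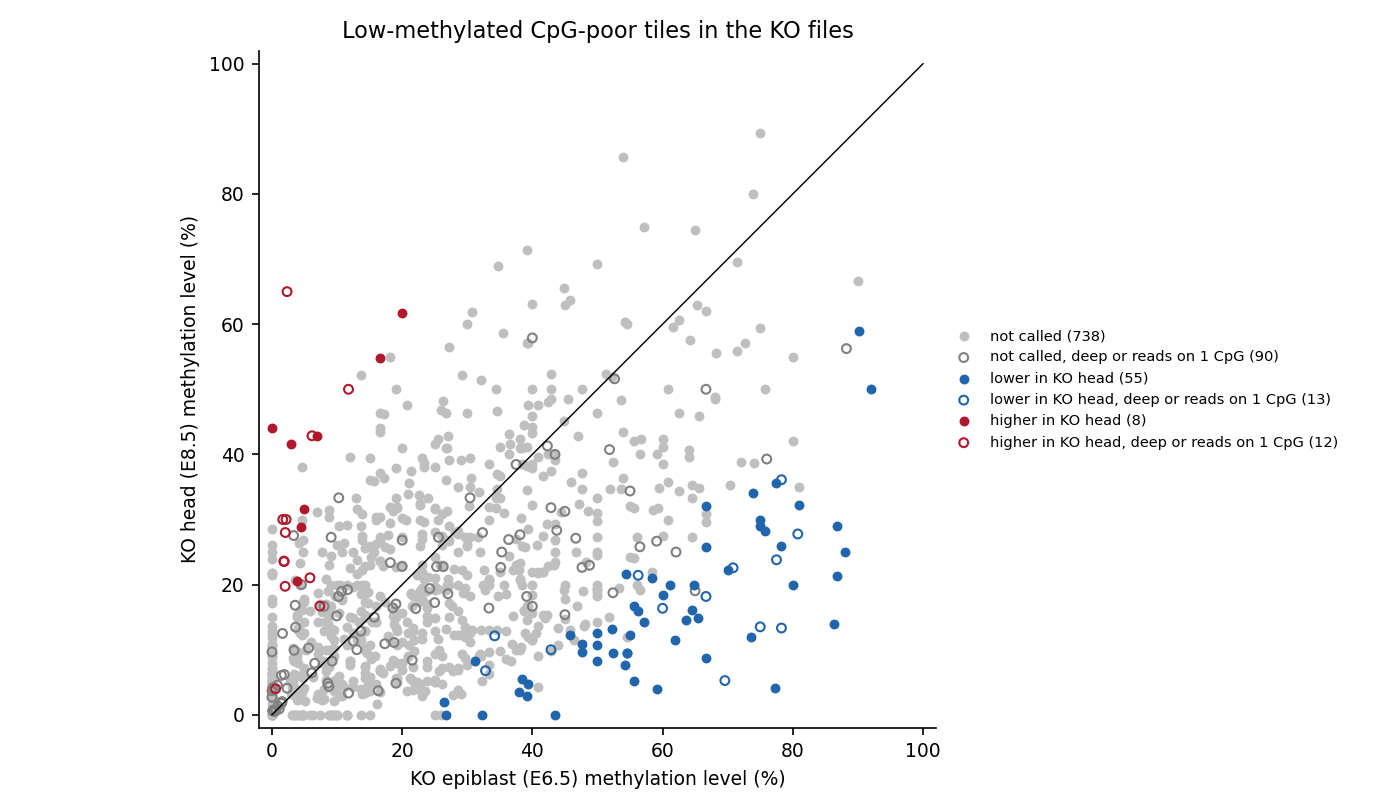
Methylation level of each of the 916 tiles in the KO epiblast (horizontal axis, percent) and the KO head (vertical axis, percent); blue points were called lower in the KO head, red points higher, and open circles mark tiles that were deep or had over 50% of a file's reads on 1 CpG. The black line marks equal levels; 55 filled blue points lie below it and 8 filled red points above it.

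Levels in the KO epiblast split the 864 tiles that were not deep into 3 ranges. At 25% or less there were 445 tiles, with a KO head median of 12.8%. Between 25% and 50% there were 287, with a KO head median of 23.0%. Above 50% there were 132, with a KO head median of 32.0%, of which 47 were at 25% or less in the KO head and 24 above 50%. The order of tiles was thus partly kept, with a Spearman correlation of 0.517 over 916 tiles between the KO files, against 0.322 over other CpG-poor tiles. These points share libraries and depth, so the correlation is a description.

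Few of the lower tiles were read deeply. With at least 40 reads in both KO files 5 of 67 tiles were called lower and 10 higher, so the excess of lower calls did not hold there. The 4 lower tiles that are not on chromosome 18 are given. The tile chr1:66885000-66885999, 21.3 kb upstream of the nearest placed gene start, that of Kansl1l, had 77.5% methylation in the KO epiblast (Wilson 95% interval 62.5 to 87.7, 40 reads), 23.8% in the KO head (13.5 to 38.5, 42 reads) and 15.6% in the WT head (6.86 to 31.8, 32 reads), with an adjusted p of 1.80e-04 by Fisher's exact test, but 59.4% of the reads of a file lay on 1 CpG. With its CpGs weighted the same these levels were 72.4%, 45.4% and 44.4%. The tile chr10:21540000-21540999, 158 kb from the start of Sgk1, a kinase of salt transport, had 47.6% (33.4 to 62.3, 42 reads), 10.9% (6.19 to 18.5, 101 reads) and 22.3% (15.8 to 30.5, 121 reads), but 69.7%, 52.5% and 62.2% with its CpGs weighted the same. The tile chr8:4405000-4405999 had 31.2% (20 to 45.3, 48 reads), 8.20% (3.55 to 17.8, 61 reads) and 7.14% (2.81 to 17.0, 56 reads) and lies 80.3 kb from the placed start of the chemokine gene Ccl25. With CpGs weighted the same it had 35.3%, 18.75% and 18.2%. In the tiles near Sgk1 and Ccl25 the intervals of the KO epiblast and the KO head did not overlap over summed reads, which adds nothing to their call on the same reads. The last, chr17:78972000-78972999, was deep, with 251 KO head reads, and 95.2% of the reads of a file lay on 1 CpG, and with CpGs weighted the same it had 90.65%, 58.8% and 81.0%.

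Large falls were also called in tiles with fewer than 40 reads in a KO file, and the 3 below were picked after their values were seen. At chr17:67710000-67710999, 6.70 kb upstream of Ptprm, a receptor tyrosine phosphatase of cell contacts, the level was 77.3% in the KO epiblast (56.6 to 89.9, 22 reads), 4.17% in the KO head (0.739 to 20.2, 24 reads) and 21.7% in the WT head (9.66 to 41.9, 23 reads). At chr19:55218000-55218999, 16.8 kb upstream of Gpam, an acyltransferase of lipid synthesis, it was 73.5% (56.9 to 85.4, 34 reads), 12% (4.17 to 30, 25 reads) and 13.0% (4.54 to 32.1, 23 reads). At chr6:49005000-49005999, 18.98 kb downstream of the start of Gpnmb, it was 55.6% (41.2 to 69.1, 45 reads), 5.26% (1.46 to 17.3, 38 reads) and 20% (9.5 to 37.3, 30 reads). The intervals of the KO files did not overlap in any of the 3, which their call on the same reads makes likely. No CpG held more than 26.3% of a file's reads in them. With CpGs weighted the same the WT head was at 34.9% near Ptprm and 37.5% near Gpnmb, above the 25% threshold, and at 12.1% near Gpam. The KO epiblast and KO head were then at 80% and 1.85% near Ptprm, 59.7% and 22% near Gpam, and 56.7% and 11.4% near Gpnmb. KO head minus KO epiblast was -24.2 points on the first strand and -84.2 on the second near Ptprm. Near Gpam it was -81.75 and -11.1.

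Most of the higher calls rested on unusual tiles. Of the 20, 10 were deep and 12 were deep or had over 50% of a file's reads on 1 CpG. With at least 40 reads in both KO files 10 were called, of which 7 were deep and 8 were deep or had reads piled on 1 CpG. The 5 with the largest rise among those not on chromosome 18 were near Plet1, Esrrg, Nup160, Ephx3 and Nfasc. The first of these, chr9:50021000-50021999, had 2.32% in the KO epiblast (1.39 to 3.86, 603 reads), 65% in the KO head (49.5 to 77.9, 40 reads) and 22.7% in the WT head (10.1 to 43.4, 22 reads), and 97.0% of the reads of a file lay on 1 CpG. The tile near Ephx3, an epoxide hydrolase gene, was of neither kind and had 4.44% (1.23 to 14.8, 45 reads), 28.8% (18.8 to 41.4, 59 reads) and 25% (13.8 to 41.1, 36 reads), at chr17:32363000-32363999. With CpGs weighted the same its levels were 40%, 71.4% and 58.1%.

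Of the 8 higher tiles of neither kind, 2 are described further, chosen after their values were seen. The tile chr2:147764000-147764999 lies 106.7 kb from the start of Foxa2, a forkhead factor of the ventral midline and endoderm, and had 20% in the KO epiblast (8.07 to 41.6, 20 reads), 61.7% in the KO head (51.6 to 70.9, 94 reads) and 15.6% in the WT head (6.86 to 31.8, 32 reads). There 2 of 11 such CpGs were mostly methylated in the KO epiblast and 10 of 11 in the KO head. The tile chr1:87795000-87795999, 4.42 kb from the start of Itm2c, had 0 methylated of 27 reads in the KO epiblast, 44.0% in the KO head (26.7 to 62.9, 25 reads) and 25% in the WT head (12.7 to 43.4, 28 reads).

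Several tiles lay near genes of transcription factors that pattern the embryo. Gene starts of 69.5% of RefSeq genes could be placed on the files' CpG positions, chromosome 18 was not used for this, and the nearest placed start may not be the nearest gene. The 16 families considered (such as Hox, Pax, Sox, Irx, Gata, forkhead and LIM homeobox genes) were listed after values of the tiles were seen. A gene of these families was the nearest placed start within 100 kb for 52 of 891 tiles (5.84%), against 1.31% of other CpG-poor tiles, a difference that was not tested, and the 52 tiles lay near 37 genes. Their medians were 16.6% in the KO epiblast, 7.11% in the KO head and 7.89% in the WT head, and 13 of the 52 were at 10% or less in all 3 files. Other CpG-poor tiles near such genes had medians of 78.3%, 81.4% and 83.3%.

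Of these 52 tiles 6 (11.5%) were called lower in the KO head than in the KO epiblast and 0 higher. Among all 916 low-methylated tiles the shares were 7.42% and 2.18%. Over all tiles tested they were 3.27% and 3.34%, and over all CpG-poor tiles 1.29% and 2.68%. The difference from the 916 tiles was not tested. At an unadjusted p under 0.05 13 were lower, beside 167 of the 916 tiles (18.2%) and 5.38% of all CpG-poor tiles. None of the 6 was deep or had its reads piled on 1 CpG.

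The tile with the largest fall, chr8:94380000-94380999, lies 54.95 kb upstream of Irx3, a homeobox gene of neural and limb patterning. It had 80.0% in the KO epiblast (62.7 to 90.5, 30 reads), 20% in the KO head (9.5 to 37.3, 30 reads) and 10.5% in the WT head (4.17 to 24.1, 38 reads; adjusted p = 4.56e-04 by Fisher's exact test for the KO files). Of the CpGs with more reads of one kind than the other, 10 of 10 were mostly methylated in the KO epiblast and 2 of 11 in the KO head. In the authors' merged RNA columns Irx3 had 0.0252 FPKM in the WT epiblast, 0.0748 in the KO epiblast, 4.70 in the WT head and 10.4 in the KO head.

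At chr2:9808000-9808999, 8.27 kb upstream of Gata3, which encodes a zinc finger factor of ectoderm and blood lineages, 32.3% of 31 reads were methylated in the KO epiblast (18.6 to 49.9), 0 of 36 in the KO head (up to 9.64%) and 3.12% of 32 in the WT head (0.554 to 15.7). At chr1:169663000-169663999, 43.8 kb downstream of the start of Lmx1a, a LIM homeobox gene of the roof plate and midbrain, the levels were 52.4% (32.4 to 71.7, 21 reads), 9.52% (3.77 to 22.1, 42 reads) and 13.6% (6.4 to 26.7, 44 reads). At chr6:72172000-72172999, 13.1 kb from the start of Atoh8, a bHLH gene, they were 39.1% (22.2 to 59.2, 23 reads), 2.86% (0.506 to 14.5, 35 reads) and 4.88% (1.35 to 16.1, 41 reads). In all 3 places the intervals of the KO epiblast and the KO head were apart, and the KO and WT heads overlapped. The tiles were picked by a test on the same reads and as low in WT heads, so both follow in part from the choice. Counted as for Irx3, 2 of 5 CpGs were mostly methylated in the KO epiblast and 0 of 11 in the KO head near Gata3. Near Lmx1a the counts were 4 of 8 and 2 of 13, and near Atoh8 5 of 13 and 0 of 14.

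The other 2 were near Pax5, a paired-box gene of the midbrain-hindbrain boundary and B cells, and Zic4, a zinc finger gene of the dorsal neural tube. The Pax5 tile (chr4:44686000-44686999) had 75% in the KO epiblast (53.1 to 88.8, 20 reads), 29.0% in the KO head (16.1 to 46.6, 31 reads) and 24.0% in the WT head (14.3 to 37.4, 50 reads). The Zic4 tile (chr9:91295000-91295999) had, in the same order, 50% (33.6 to 66.4, 32 reads), 8.33% (2.32 to 25.9, 24 reads) and 14.8% (5.92 to 32.5, 27 reads). With CpGs weighted the same it had 31.2%, 6.06% and 15.4%. Mostly methylated CpGs were 8 of 9 in the KO epiblast and 3 of 10 in the KO head near Pax5. Near Zic4 they were 4 of 9 and 1 of 11. None of the called tiles near these genes passed the adjusted threshold with each CpG counted once. RNA of these genes is given in FPKM in the order WT epiblast, KO epiblast, WT head and KO head. Pax5 had 0, 0, 1.42 and 0, and Zic4 0.0103, 0, 0.138 and 0. Gata3 had 0.014, 0, 3.15 and 9.34, Lmx1a 0, 0, 1.57 and 1.11, and Atoh8 0.157, 0, 1.16 and 1.10. A link between methylation and RNA was not tested.

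**Figure D4:**
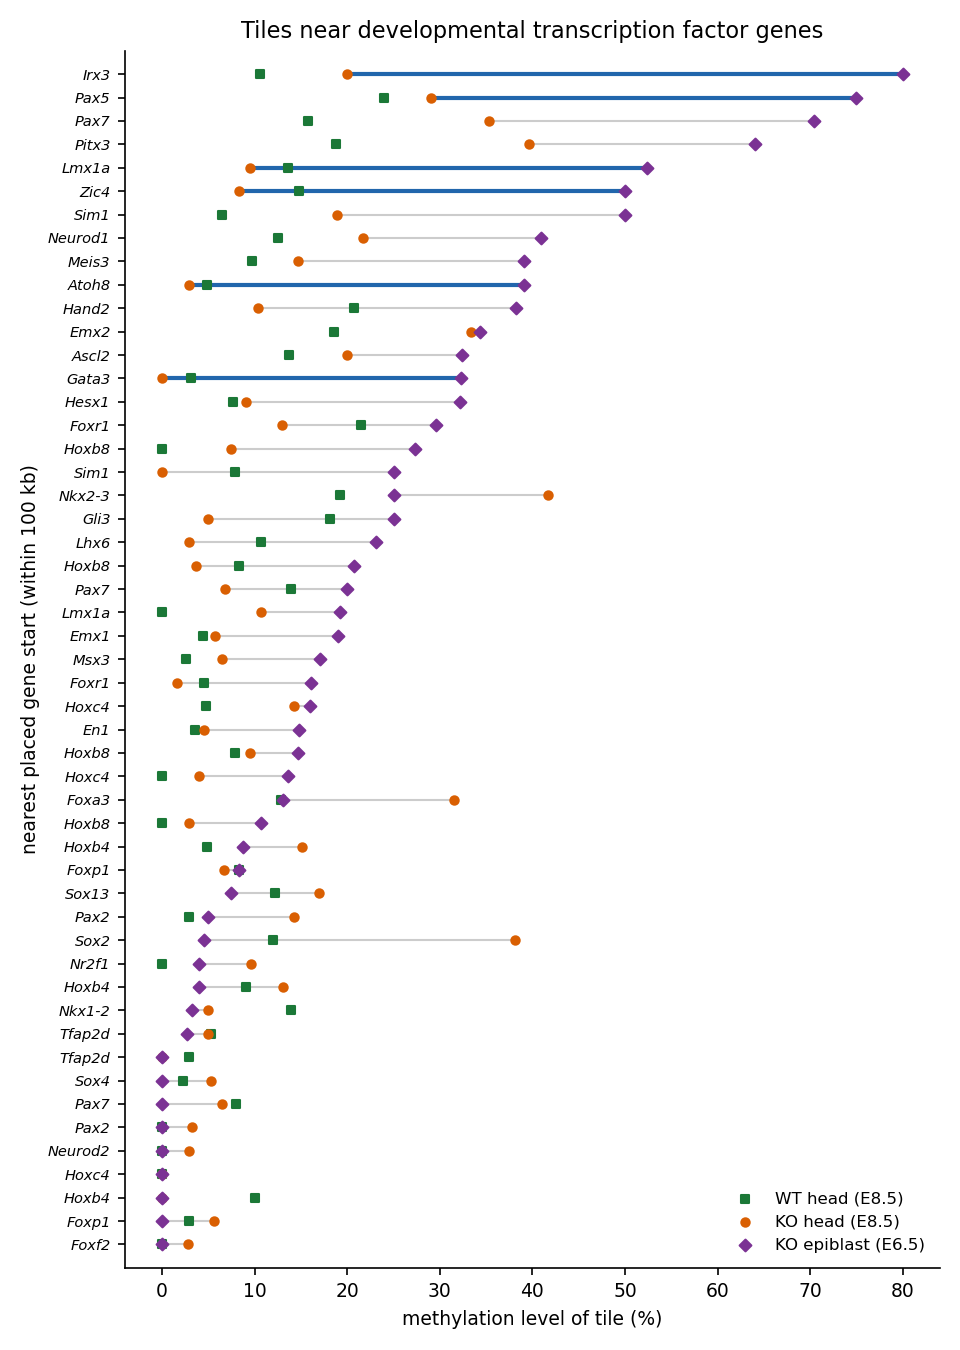
Methylation level (horizontal axis, percent) in each file of the 51 tiles that were not deep and whose nearest placed gene start, within 100 kb, belongs to a listed family of developmental transcription factors (gene on the vertical axis, ordered by the KO epiblast level). Lines join the KO epiblast and the KO head and are blue where the test called a difference; the 6 blue lines all run down from epiblast to head, from 80.0% to 20% near Irx3 at the top.

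Other tiles near such genes were low at both stages. In the HoxB region 7 tiles had a nearest placed start of Hoxb8 or Hoxb4, with levels between 0% and 27.3% in the KO epiblast and between 0% and 15.2% in the KO head. Of 3 tiles nearest to Hoxc4, chr15:102835000-102835999 had 0 methylated reads, of 36 in the KO epiblast, 22 in the KO head and 44 in the WT head, where a count of 0 of 22 still allows a level of up to 14.9% (Wilson). The tile that holds the Hoxc4 window printed above was at 13.6% (4.75 to 33.3, 22 reads), 4% (1.10 to 13.5, 50 reads) and 0% (up to 6.88, 52 reads). Tiles near Foxf2, Sox4, Neurod2 and Tfap2d were also at 10% or less in all 3 files. RNA of Hoxc4 was at 0.0521 FPKM or less in each of the 4 merged columns, and Hoxb4 was listed at 0 in each.

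Counting a difference of any size, 32 of the 52 tiles near genes of these families were lower in the KO head. Another 17 were higher in the KO head than in the KO epiblast, and none of these 17 passed the test. The tile with the largest rise lies 17.6 kb from the start of Sox2, which encodes a factor of pluripotent and neural progenitor cells. It had 4.55% in the KO epiblast (22 reads), 38.1% in the KO head (21 reads) and 12% in the WT head (25 reads), with an adjusted p of 0.0977 by Fisher's exact test.

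Some tiles lay at gene starts. The middle of 66 of 891 tiles (7.41%) was within 1 kb of a placed start, against 0.755% of other CpG-poor tiles, and 27.3% against 16.5% were within 10 kb. The median distance was 30.8 kb against 41.2 kb. Tiles at gene starts had medians of 23.1% in the KO epiblast, 14.3% in the KO head and 12.5% in the WT head. The test called 3 of them lower in the KO head, at Stmn3, Prickle2 and 3110040N11Rik, and 1 higher, at Stap2, which was deep. The lower calls were 4.55% of the 66, beside 7.42% of all 916 tiles, 3.27% of all tiles tested and 1.24% of other CpG-poor tiles at gene starts. At the start of Stmn3, whose window is printed above, the tile level was 38.5% in the KO epiblast (22.4 to 57.5, 26 reads), 5.45% in the KO head (1.87 to 14.9, 55 reads) and 0% in the WT head (up to 8.76, 40 reads; adjusted p = 0.0116 by Fisher's exact test for the KO files). At Prickle2, a planar cell polarity gene, it was 47.6% (28.3 to 67.6, 21 reads), 9.68% (3.35 to 24.9, 31 reads) and 25% (12 to 44.9, 24 reads).

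RNA was set beside these starts from other libraries of the same groups, with 1 merged column of FPKM per group and therefore no error and no test. Of the 66 genes, 52 had a row under the same symbol, and 30 of these had at least 1 FPKM in the WT epiblast, 32 in the KO epiblast, 29 in the WT head and 29 in the KO head, or 55.8% to 61.5%, against 44.5% of all rows in each column. The genes thus ranged from silent to active. Stmn3 had 3.85, 4.08, 9.88 and 11.7 FPKM in the order WT epiblast, KO epiblast, WT head and KO head. Zscan10, a zinc finger gene of pluripotent cells, had 55.9, 81.2, 13.6 and 26.7 FPKM, and its tile was at 13.8% in the KO epiblast, 20% in the KO head and 22.7% in the WT head. Within that tile the window before the start, with 3 CpGs, had 0 of 4 methylated reads in the KO epiblast and 7 of 13 in each head. Pla2g10, a secreted phospholipase gene, had 11.4, 12.4, 0.0606 and 0.156 FPKM, and its tile was at 44.8% in the KO epiblast (29 reads), 65.5% in the KO head (29 reads) and 12% in the WT head (25 reads).

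Between the heads, the sign of the difference changed with how tiles were chosen. In the 916 tiles chosen on the WT head, the KO head was higher by a median of 4.06 points (3.33 to 4.88), with 608 tiles above and 288 below the WT head. Choosing instead on a KO head level of 25% or less gave 955 tiles with a median of -4.33 points (-5.33 to -3.16). When the tiles were chosen on the WT reads of the first strand and compared on the second, the median was 0 (1136 tiles, 520 above and 528 below), and the reverse gave 0 as well (1212 tiles, 536 above and 577 below). Tiles chosen on the KO epiblast, which is neither head, gave -0.355 points (-1.13 to 0.172, 1219 tiles, 578 above and 621 below). These last choices also kept many tiles that were not among the 916. Of the 1219 tiles chosen on the KO epiblast, 491 (40.3%) were among them. Tiles chosen on 1 strand had WT head medians of 37.5% and 40% on the other. These medians therefore cannot tell how much of the 4.06 points came with the choice of tiles. Other CpG-poor tiles, above 25% in WT heads, had a median of -0.833 points.

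**Figure D5:**
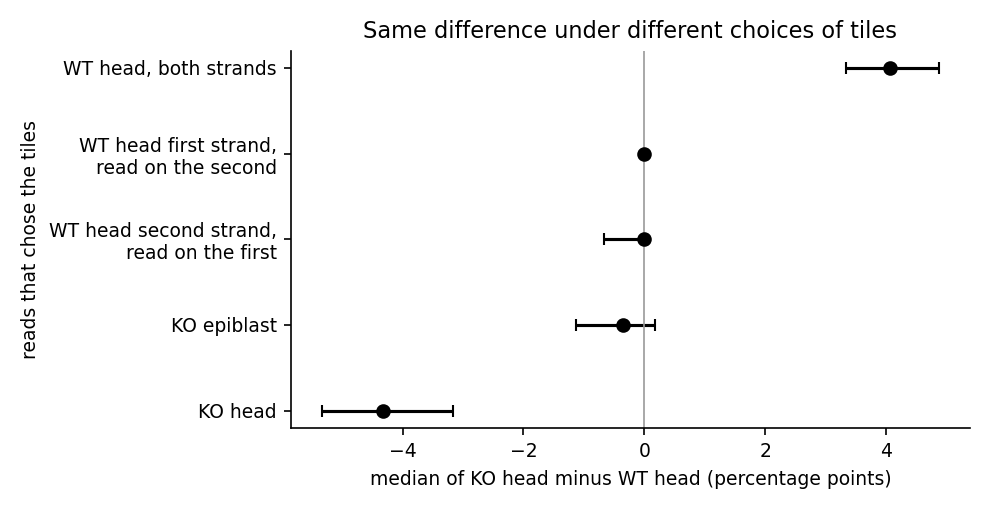
Median of KO head minus WT head (horizontal axis, percentage points; bars are binomial 95% intervals of the median over tiles) for CpG-poor tiles chosen as low by different reads (vertical axis). The median is 4.06 points where WT heads chose the tiles, -4.33 where KO heads did, and at or within 0.355 points of 0 where other reads did.

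Single tiles with a higher level in the KO head are given as a description. The test called 14 of the 916 higher in the KO than in the WT head and 0 lower, against 0.675% and 0.423% of all tiles, and nothing is read from this because the WT head chose the tiles. The tiles named here had the largest differences among those with 40 or more reads in both heads, and of the 5 the one near Tmem258 passed the adjusted threshold while the other 4 did not. At chr19:10353000-10353999, 73.0 kb from the start of Tmem258, the WT head had 11.1% (5.19 to 22.2, 54 reads), the KO head 44.2% (30.4 to 58.9, 43 reads) and the KO epiblast 40% (24.6 to 57.7, 30 reads). At chr4:139317000-139317999, 71.4 kb from the start of Pax7, a paired-box gene of dorsal neural tube and crest, they had 15.8% (8.54 to 27.4, 57 reads), 35.3% (23.6 to 49.01, 51 reads) and 70.4% (51.5 to 84.2, 27 reads). The others were near Ptgfrn, Rps24 and Grasp, with 28.0%, 24.6% and 42.3% in the KO head and 4.76%, 2.38% and 22.7% in the WT head. With CpGs weighted the same the Pax7 tile had 40.4% in the WT head and 37.2% in the KO head. Its KO head was then not the higher one, while in the other named tiles the KO head stayed higher. Near Ptgfrn 85.7% of the reads of a file lay on 1 CpG. Summed over 4 blood markers, RNA was 97.9 FPKM in the WT head and 4.995 in the KO head, from other libraries, and the part of blood cells in the methylation values was not tested; fewer cells of a type and a changed level per cell cannot be told apart in bulk tissue.

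The best-read tiles at 10% or less in all 3 files, with deep tiles left out, included 3 at gene starts. At Ddr1, a collagen receptor gene, chr17:35840000-35840999 had 0 of 23 reads methylated in the KO epiblast, 7.14% in the KO head (1.98 to 22.7, 28 reads) and 2.53% in the WT head (0.697 to 8.77, 79 reads). At Slc39a1, a zinc transporter gene, chr3:90051000-90051999 had 3.03% (0.537 to 15.3, 33 reads), 5.71% (1.58 to 18.6, 35 reads) and 9.38% (4.37 to 18.98, 64 reads), and the Stoml1 tile that holds the window above had 7.14%, 9.30% and 9.86%. The other 2 were far from placed starts: chr4:100211000-100211999, 60.0 kb from that of Ube2u, at 6.90%, 2.53% and 5.49%, and chr14:65210000-65210999 at 0%, 1.72% and 1.61%. No difference between the KO files was called in these 5.

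Pairs of adjacent tiles lay near Col19a1, Kcnh2, Tlx1, Dbx1 and Spata13. The pair 152 kb from Dbx1, a homeobox gene of ventral interneurons, had 0% and 7.14% in the KO epiblast, 6.45% and 3.23% in the KO head and 14.3% and 2.94% in the WT head (chr7:56739000-56739999 and chr7:56740000-56740999). The pair downstream of the start of Kcnh2, a potassium channel gene, was less uniform, with 26.7% and 21.6%, 40.9% and 16.7%, and 24.6% and 10% in the same order. The pair near Col19a1 was deep, with up to 13223 reads in a tile, and lay between 0.302% and 0.651% in every file.

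The threshold cut through a continuous range. The best-read tiles just inside it were at 25% in WT heads, at chr10:6220000-6220999, chr10:79208000-79208999 and chr17:27366000-27366999, with 22.4%, 27.3% and 34.6% in the KO head and 28.0%, 50% and 34.6% in the KO epiblast. The tiles just outside it were at 25.3%, 25.4% and 25.4% in WT heads, at chr10:76182000-76182999, chr4:147588000-147588999 and chr2:121533000-121533999, with 26.8%, 42.1% and 36.2% in the KO head and 42.9%, 59.1% and 72.4% in the KO epiblast.

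Low-methylated tiles with more CpGs were lower still. The 11676 low-methylated tiles of 15 to 49 CpGs, also with no tile of 50 or more CpGs within 2 tiles, had medians of 13.3% in the KO epiblast and 8.33% in the KO head, and the 12893 low-methylated tiles of 50 or more CpGs had 4.35% and 1.59%. The share called lower in the KO head was 11.4% and 25.6% in these sets, against 7.42% in the CpG-poor tiles, but they also had more reads, with medians of 82 and 307 in the KO head against 33, and the part of depth in these shares was not tested. Within the CpG-poor tiles, those with 5 to 9 CpGs (142) had 17 lower calls (12%) and 9 higher. Those with 10 to 14 CpGs (774) had 51 lower (6.59%) and 11 higher. Most of the 17 lower tiles with 5 to 9 CpGs had over 50% of a file's reads on 1 CpG, as did 13 of all 68 lower tiles. The part of such tiles in this contrast was not tested. By chromosome the share of CpG-poor tiles that were low-methylated ran from 0.874% (18 of 2059, chromosome 16) to 1.94% (39 of 2007, chromosome 19).

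Tissue markers were read in the RNA of the same groups. All 8 epiblast markers were at 1 FPKM or more in both epiblast columns and 7 of 8 in both heads, so their sums are given too: 1565 FPKM in the WT and 2004 in the KO epiblast, 153.1 in the WT and 197.4 in the KO head. Of 8 head neural markers, 8 were at 1 FPKM or more in the WT head, 7 in the KO head and 1 in each epiblast column. Their sum was 154.3 FPKM in the WT head and 84.8 in the KO head, but 111.5 in the WT and 118.4 in the KO epiblast. Otx2, which is in both lists, had 87.4 FPKM in the WT head, 62.8 in the KO head, 111.4 in the WT and 118.2 in the KO epiblast. It made up most of each head neural sum, so this sum does not separate the tissues. It was also the largest part of the epiblast sum in the WT head. Every other epiblast marker was higher in the KO head than in the WT head. Pou5f1 had 16.9 against 3.91 FPKM, Nanog 8.3 against 1.6, Fgf5 6.94 against 1.70 and Utf1 4.58 against 1.14. The part of this difference in the KO head methylation was not tested. Of 4 visceral endoderm markers, 0 reached 1 FPKM in any column. The targeted gene Kmt2b (row Wbp7, an earlier symbol) was at 0.701 FPKM in the WT and 0.308 in the KO epiblast, and at 0.6003 in the WT and 0.133 in the KO head. The methylation libraries hold no such check of their genotype.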

How the data were processed

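The methylation files deposited by the authors hold, for each CpG of mm9, whole-number counts of methylated and unmethylated reads on each strand (unit other), pooled over 3 KO epiblast, 2 KO head and 2 WT head samples per the labels. The submitters' processing notes list BS-Seeker2, an aligner for bisulfite reads, and the trimmer Trim Galore, and conversion rates are not given in the sources used here. The files have no header; the strand columns were checked by the correlation of the strands' levels (0.789, 0.821 and 0.847 in the order KO epiblast, KO head, WT head). The RNA table deposited by the authors gives FPKM, 1 merged column per group, with TopHat2 2.0.11 and Cufflinks 2.0.2 in the submitters' processing notes. After sorting, its 4 columns used here differ by at most 0.212 FPKM, so they share 1 distribution, and their read depth is unknown; 2 columns of no listed sample were not used.

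Reads were summed per 1 kb tile. KO head and KO epiblast were compared with Fisher's exact test per tile (Python 3.11.15, numba 0.67.0), two-sided, with Benjamini-Hochberg adjustment over 258057 tiles, and tested on simulated data first. Intervals are Wilson 95% (statsmodels 0.14.6). RefSeq promoter sequences (300 bases, 4 or more CpGs) were placed where the spacing of their CpGs matched the files exactly; 13697 of 13698 uniquely matched promoters with 10 or more CpGs were in order. Positions are counted from 1.

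Tiles are named by rule: the largest called falls (up to 8) and rises (up to 5) with 40 reads in both KO files, the 5 best-read tiles at 10% or less in all files, 5 runs, the 5 largest differences between heads with 40 or more reads in both heads, and 3 tiles on each side of the threshold. Chromosome 18 tiles are counted but not named. The plan named genes only from an mm9 annotation; placing starts by CpG spacing, the family list and the genes from it were added later. The tiles and lists were chosen with earlier results of these data known.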

Additional observations from a re-analysis of the deposited data

How the results depend on the processing

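No paired analysis was possible because the authors pooled the samples of each group in 1 file, and for the same reason no replicate could be left out. Values below are in the order number of tiles, KO head median, KO epiblast median, KO head minus WT head, tiles lower and tiles higher in the KO head than in the KO epiblast, with only those that moved. With a WT head level of 15% or less they were 469, 11.1%, 15%, 3.23 points, 32 and 6. With 20% or less, 13.6%, 18.9%, 42 lower and 12 higher. With 30% or less, 22.5% and 28%. With 10 or more reads they were 4194, 23.3%, 30.3%, 8.33 points, 169 and 33, and with 40 or more 51, 11.6%, 9.95%, 1.95 points, 7 and 6. Tiles of 5 to 9 CpGs gave 142, 21.4% in the KO epiblast, 17 lower and 9 higher, and those of 10 to 14 CpGs 11 higher. Choosing tiles on first-strand reads gave 29.6%, 38.2% and 0 points, and on second-strand reads 29.0%, 38.5% and 0 points. Choosing on the KO head gave 15.6%, -4.33 points, 128 lower and 9 higher. Choosing on the KO epiblast gave 31.2%, 14.3%, -0.355 points, 0 lower and 390 higher. The directions there are not independent of which file chose the tiles.

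Lower and higher calls were 17 and 9 on first-strand reads alone, 20 and 6 on second-strand reads alone, 0 and 0 with each CpG counted once, and 29 and 12 at an adjusted p under 0.01 (Fisher's exact test). Higher calls were 10 without deep tiles, 13 without tiles whose reads lay mostly on 1 CpG and 8 without both. With the level as the mean over CpGs the head difference was 5.52 points, with 34 lower and 11 higher. The mean over CpGs, leaving out tiles with reads piled on 1 CpG and choosing on the KO epiblast were added after seeing the data. Of 28 single tiles followed, 5 changed sign under a strand or CpG setting: chr9:50021000-50021999 (-18.9 points, second strand), chr5:118142000-118142999 (6.59, second strand), chr11:52555000-52555999 (5.26 and 2.5, first and second strand), chr6:148671000-148671999 (6.06, second strand) and chr17:56145000-56145999 (-3.67 on the second strand and -11.4 with each CpG counted once). The cause was not tested. Depth also limits single tiles, since a median of 26 reads in the KO epiblast leaves wide intervals.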

Other observations

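In some called tiles the summed level hid strands that differed. At chr11:52555000-52555999, near Fstl4, the level was 78.3% in the KO epiblast (23 reads) and 13.3% in the KO head (45 reads), a called fall. On the first strand it was 94.7% of 19 reads in the KO epiblast and 100% of 5 in the KO head, and on the second 0% of 4 and 2.5% of 40, so each strand on its own was higher in the KO head by 5.26 and 2.5 points. At chr5:118142000-118142999, near Nos1, the KO head was at 6.45% of 62 reads on the first strand and 92.3% of 13 on the second, and its level of 21.3% over all reads became 70.2% with each CpG weighted the same. These tiles were picked after their values were seen, and the cause was not tested.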
